A study of Mus musculus with 5 samples.

Results

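The barcodes described here are the keratinocyte-like cells of injected mouse mammary glands, found by a fixed combination of transcripts in single-cell RNA sequencing. A barcode stands for 1 droplet, and a UMI for 1 counted RNA molecule. Members were chosen by measured values: each had at least 300 genes, at most 20% mitochondrial UMIs and at least 3 UMIs of Krt14 and Krt5 together. It also had at least 2 UMIs of Krtdap, Krt6a, Krt79 and Krt16 together, no UMI of Ptprc or Pecam1, and fewer UMIs of Krt8 and Krt18 than of Krt14 and Krt5. The rule gave 239 members among 31261 gland barcodes that passed the gene and mitochondrial limits, of 34526 barcodes in the whole series.

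BPK 4NQO glands (2 libraries) carried Brca1 wt/flox, Trp53 flox/flox and Krt14cre and received 12 intraductal injections of the carcinogen 4NQO. The PK 4NQO gland (1 library) had Brca1 wt/wt with the same Trp53 and Cre alleles and the same injections. The BPK vehicle gland (1 library) had the BPK genotype and 12 injections of PBS/PEG. A BPK tumor (1 library) that formed after 24 injections of 4NQO was set beside them. Every animal therefore carried floxed Trp53 and a Cre driven by the keratin 14 promoter, which is active in basal cells of the gland and of the skin. The labels do not say whether the BPK 4NQO replicates came from separate animals, whether animals were pooled, or their ages, so p-values measure only the spread between these samples.

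Keratinocytes of stratified epithelia divide in a basal layer that makes Krt5 and Krt14, and then leave that layer and change their keratins, junctions and secreted proteins as they move outward. Krt6a and Krt16 are keratins induced in wounded and hyperproliferative epidermis and made constitutively in parts of the hair follicle, Krt79 marks the opening region of the follicle, and Krtdap encodes a small secreted protein of differentiating layers. The mammary gland has a basal layer of its own, the contractile myoepithelium, which also makes Krt5 and Krt14 but squeezes milk with smooth muscle proteins such as Acta2. Basal-gate barcodes, used here as that layer, met the same keratin limits with 0 UMIs of the 4 selecting genes.

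Library depth was 46938491 and 27383717 UMIs in BPK 4NQO replicates 1 and 2, 35281954 in PK 4NQO and 64169843 in BPK vehicle, and 58754764 UMIs in the tumor. Members held 619871 and 512355 UMIs in BPK 4NQO replicates 1 and 2, 177106 in PK 4NQO and 182858 in BPK vehicle, so 1 UMI weighed most in PK 4NQO and BPK vehicle. Median UMIs per member were 8738 and 4104 in BPK 4NQO replicates 1 and 2, 3478 in PK 4NQO and 4655 in BPK vehicle, against basal medians of 2688, 2247, 2097 and 3250 in the same libraries. No member barcode was shared between libraries. Over all barcodes, any pair of libraries with BPK 4NQO replicate 2 in it had 1 or 2 sequences in common, and every other pair 26 to 107. Whether BPK 4NQO replicate 2 was made with the labelled chemistry and its barcode list was not tested.

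Members were a small part of every gland, and their share was highest in both BPK 4NQO libraries. They numbered 65 and 102 in BPK 4NQO replicates 1 and 2, 37 in PK 4NQO and 35 in BPK vehicle. As a share of kept barcodes this was 0.870% (exact Clopper-Pearson 95% interval 0.672 to 1.11) in BPK 4NQO replicate 1 and 1.47% (1.20 to 1.78) in replicate 2. It was 0.497% (0.350 to 0.685) in PK 4NQO and 0.373% (0.260 to 0.518) in BPK vehicle. The intervals cover counting error only. The lower bound of BPK 4NQO replicate 1 lay below the upper bound of PK 4NQO and above that of BPK vehicle. The mean of BPK 4NQO was 1.17% ± 0.421 (SD, n = 2). These shares carry no test, because they use the values that chose the members and 2 libraries against 1 cannot reach 0.05 in an exact test.

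The members' share was read again at equal depth, because a cell with more UMIs passes a UMI minimum more readily. With every barcode thinned to 1500 UMIs and shallower barcodes left out (1072 and 2111 in BPK 4NQO replicates 1 and 2, 1371 in PK 4NQO and 1073 in BPK vehicle), the shares were 0.484% and 1.01% in BPK 4NQO, 0.264% in PK 4NQO and 0.180% in BPK vehicle. The order of the 4 libraries stayed as it was. Thinned to 1000 UMIs, the share was 0.230% (0.132 to 0.373) in BPK 4NQO replicate 1, 0.614% (0.428 to 0.853) in replicate 2, 0.206% (0.112 to 0.345) in PK 4NQO and 0.0673% (0.0247 to 0.146) in BPK vehicle, so BPK 4NQO replicate 1 lay close to PK 4NQO at that depth. Among epithelial barcodes alone the shares were 1.42% and 4.46% in BPK 4NQO replicates 1 and 2, 0.720% in PK 4NQO and 0.552% in BPK vehicle. In the tumor 1185 of 2290 kept barcodes passed the same rule, or 51.7% (49.7 to 53.8).

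**Figure D1:**
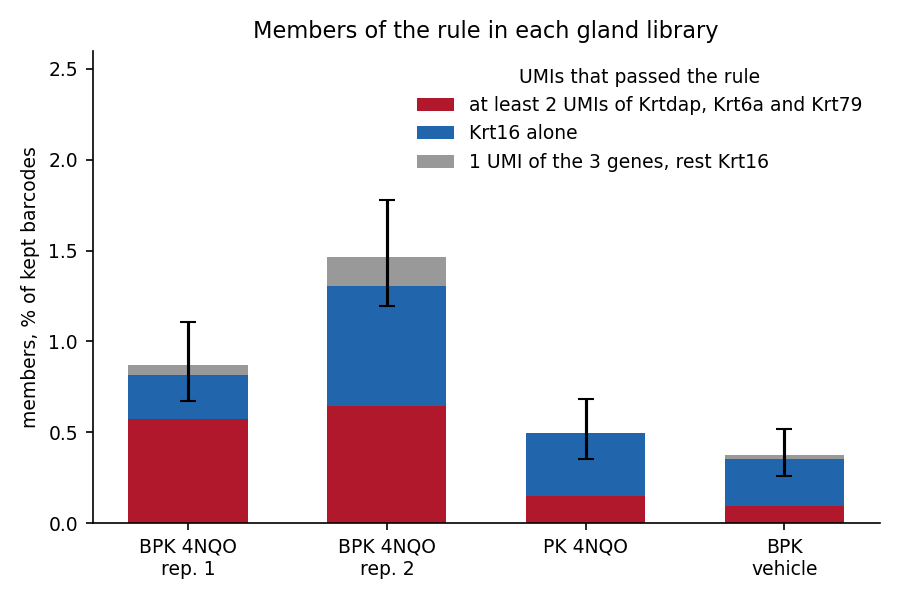
Members as a percent of kept barcodes in each gland library, stacked by which selecting genes let them pass; error bars are exact 95% intervals of the total. The bars reach 0.870% and 1.47% in BPK 4NQO, 0.497% in PK 4NQO and 0.373% in BPK vehicle, and the part that passed on Krt16 alone is the larger one in PK 4NQO and BPK vehicle and, by 46 members to 45, in BPK 4NQO replicate 2.

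The label was checked against the marker genes, and the members fell into 2 kinds with different markers. This division was made after the values were seen and is given without a test. Members of the first kind, called three-gene members here, had at least 2 UMIs of Krtdap, Krt6a and Krt79. They numbered 43 and 45 in BPK 4NQO replicates 1 and 2, 11 in PK 4NQO and 9 in BPK vehicle. Krt16-only members had none of those UMIs and passed on Krt16 alone, and numbered 18 and 46 in BPK 4NQO replicates 1 and 2, 26 in PK 4NQO and 24 in BPK vehicle. As a share of members the Krt16-only kind made up 27.7% (interval 17.3 to 40.2) of BPK 4NQO replicate 1 and 45.1% (35.2 to 55.3) of replicate 2, 70.3% (53.0 to 84.1) in PK 4NQO and 68.6% (50.7 to 83.1) in BPK vehicle. The remaining 4 and 11 in BPK 4NQO replicates 1 and 2, 0 in PK 4NQO and 2 in BPK vehicle had 1 UMI of the 3 genes and the rest from Krt16.

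Lgals7 encodes galectin-7, a lectin of stratified epithelia, and was the only given marker outside the rule (chromosome 7, 28863853 to 28866284, GRCm38). Three-gene members had 4886 and 4389 CPM in BPK 4NQO replicates 1 and 2, 5035 in PK 4NQO and 5867 in BPK vehicle, where CPM is UMIs per 1000000 UMIs of the class. Krt16-only members had 1881 and 1157 CPM in BPK 4NQO replicates 1 and 2, 1995 in PK 4NQO and 1416 in BPK vehicle, and basal barcodes 1196 and 755 CPM in BPK 4NQO replicates 1 and 2, 1532 in PK 4NQO and 1385 in BPK vehicle. Galectin-7 RNA was thus highest in three-gene members of each library, while Krt16-only members lay close above the basal level. Ly6d, a surface protein of stratified epithelia that the rule did not use, divided them more sharply. Three-gene members had 1536 and 3414 CPM in BPK 4NQO replicates 1 and 2, 2902 in PK 4NQO and 2918 in BPK vehicle, and Krt16-only members 52.2 and 131 CPM in BPK 4NQO replicates 1 and 2, 25.6 in PK 4NQO and 18.5 in BPK vehicle. The basal range was 52.9 to 119 CPM, so Krt16-only members held no more Ly6d than basal barcodes except in BPK 4NQO replicate 2.

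Contractile RNA ran the other way. Acta2 encodes smooth muscle actin and was at 272 and 268 CPM in BPK 4NQO replicates 1 and 2, 516 in PK 4NQO and 978 in BPK vehicle among three-gene members. Krt16-only members had 3879 and 2429 CPM in BPK 4NQO replicates 1 and 2, 4872 in PK 4NQO and 7015 in BPK vehicle, against 5250.2 and 5088 CPM in BPK 4NQO replicates 1 and 2, 6307 in PK 4NQO and 6473 in BPK vehicle among basal barcodes. Krt16-only members of BPK vehicle therefore carried as much Acta2 as the basal gate, and those of BPK 4NQO replicate 2 carried less. UMIs of each barcode were also summed over 7 contractile genes: Acta2, Myh11, Tagln, Cnn1, Oxtr, Mylk and Myl9. The median member of the three-gene kind had 0.911 and 0.786 UMIs per 10000 in BPK 4NQO replicates 1 and 2, 0 in PK 4NQO and 2.58 in BPK vehicle. The Krt16-only medians were 54.0 and 26.1 UMIs per 10000 in BPK 4NQO replicates 1 and 2, 119 in PK 4NQO and 161 in BPK vehicle, and the basal medians 118, 132, 140.2 and 137 in the same libraries. The markers of three-gene members were those of the name keratinocyte-like. By Ly6d and the contractile medians, Krt16-only members went against it in PK 4NQO and BPK vehicle. In BPK 4NQO replicate 1 Ly6d did so as well, while the contractile median of 54.0 lay well below the basal 118. Squamous gene sums, given below, were above the basal level in Krt16-only members of every library. Krt16-only members of BPK 4NQO replicate 2 were mixed, from 0 to 384 contractile UMIs per 10000, with 6 of 46 at 0.

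**Figure D2:**
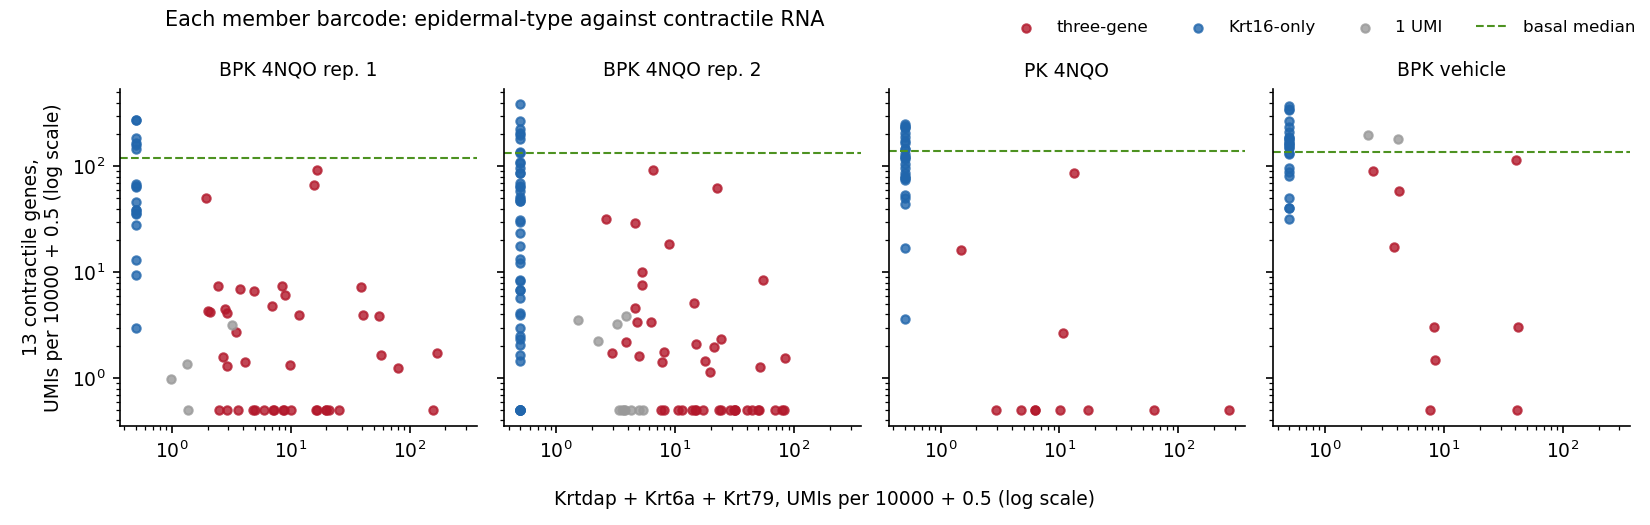
Each point is 1 member, with Krtdap, Krt6a and Krt79 together on the x axis and 7 contractile genes together on the y axis. The genes on the y axis are Acta2, Myh11, Tagln, Cnn1, Oxtr, Mylk and Myl9, although its printed label says 13. Both axes are UMIs per 10000 plus 0.5 on log scales, and the dashed line is the basal median. Krt16-only members lie in a column at the left, near the line in PK 4NQO and BPK vehicle (medians 119 and 161) and lower in BPK 4NQO (54.0 and 26.1), while most three-gene members lie at the bottom.

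The 250 bases upstream of the start of a gene that marks each kind are printed here, so that the promoter of an epidermal gene can be set beside that of a contractile one (RefSeq, GRCm38.p6, 5′ to 3′ as transcribed). Krtdap lies at chr7:30787655-30787904 on the plus strand and Acta2 at chr19:34255374-34255623 on the minus strand. Capitals mark TATAAA, searched on the transcribed strand, and TGANTCA, the AP-1 motif, searched on both strands.
Krtdap: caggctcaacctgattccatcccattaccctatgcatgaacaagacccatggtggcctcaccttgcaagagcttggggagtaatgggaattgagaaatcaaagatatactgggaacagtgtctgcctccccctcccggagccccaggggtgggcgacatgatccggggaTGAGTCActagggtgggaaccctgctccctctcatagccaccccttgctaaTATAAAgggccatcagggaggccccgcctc
Acta2: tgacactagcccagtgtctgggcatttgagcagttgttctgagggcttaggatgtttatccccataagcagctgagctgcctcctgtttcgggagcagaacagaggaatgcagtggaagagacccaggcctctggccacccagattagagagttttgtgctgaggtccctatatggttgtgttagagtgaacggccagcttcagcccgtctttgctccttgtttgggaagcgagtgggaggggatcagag
The Krtdap window holds 1 TATAAA, 30 bases before the start, and 1 TGANTCA, 81 bases before it, and neither motif overlaps the other. The Acta2 window holds neither. Among 32851 promoter windows, 7.59% hold TATAAA on the transcribed strand and 6.75% hold TGANTCA on either strand. A match describes the letters only, and no binding was measured.

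Members passed the rule by different genes in different libraries. The share of members with a UMI of Krt6a was 55.4% and 49.0% in BPK 4NQO replicates 1 and 2, 27.0% in PK 4NQO and 14.3% in BPK vehicle. For Krt16 the share was 72.3% and 78.4% in BPK 4NQO replicates 1 and 2, 94.6% in PK 4NQO and 74.3% in BPK vehicle. Krt16 was found in 0 to 0.493% of endothelial barcodes, whose median depths were 1835.5 to 2616 UMIs against 3478 to 8738 among members. Endothelial and fibroblast barcodes were chosen to have 0 UMIs of Krt14, Krt5, Krt8 and Krt18. That choice also leaves out droplets with free keratin RNA, so their shares can understate it. Other genes and classes held more: Krtdap was in 1.85 to 4.53% of fibroblast barcodes and Krt6a in 2.88 to 10.5% of luminal barcodes. In BPK vehicle these were 4.37% and 10.5%, against 11.4% and 14.3% of members. Krt16 was in 0.401 to 5.63% of luminal barcodes. Whether such UMIs were free RNA was not tested. Members with a UMI of Krtdap were 20 and 9 in BPK 4NQO replicates 1 and 2, 3 in PK 4NQO and 4 in BPK vehicle, and members with all 4 selecting genes 7 and 1 in BPK 4NQO replicates 1 and 2, 2 in PK 4NQO and 0 in BPK vehicle. Single barcodes weighed heavily where members were few. In PK 4NQO 1 barcode of 11992 UMIs held 158 of 193 Krtdap UMIs, 160 of 162 Krt79 UMIs and 58 of 61 UMIs of Krt10, a keratin of suprabasal layers.

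At the minimum of 2 UMIs there were 13 and 24 in BPK 4NQO replicates 1 and 2, 14 in PK 4NQO and 15 in BPK vehicle members, and just below it, at 1 UMI, 44 and 56 in BPK 4NQO replicates 1 and 2, 46 in PK 4NQO and 93 in BPK vehicle barcodes. Lgals7 was at 2745 and 1186 CPM in BPK 4NQO replicates 1 and 2, 1507 in PK 4NQO and 1033 in BPK vehicle just inside, and at 1691 and 1129 CPM in BPK 4NQO replicates 1 and 2, 2157 in PK 4NQO and 1517 in BPK vehicle just outside. The values of the 2 sides overlapped, so the minimum cut a range and not a gap.

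The contrast of members with basal barcodes describes what the rule picked, and is given without a test. A gene counts as higher or lower where its log2 ratio of CPM + 1 had the same sign in all 4 gland libraries. Of 10460 genes with enough counts, 1262 (12.1%) were higher and 1372 (13.1%) lower in every library, with a median log2 ratio of -0.07. Every gene of the cells that passed the rule is part of this choice, so the list counts below are read as a portrait of the members.

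Squamous and adhesion genes were higher in members as a whole than in basal barcodes. Of 18 squamous genes 11 were higher in all 4 libraries and 0 lower (median 2.13), and of 16 desmosome and stratified adhesion genes 11 were higher and 0 lower (median 1.12). Krt16-only members held 1293 and 1905 CPM of adhesion genes in BPK 4NQO replicates 1 and 2, against 1270 and 1741 in basal barcodes. They held 1713 CPM in PK 4NQO and 1388 CPM in BPK vehicle, against 1425 and 1364 CPM. Three-gene members held 2620 to 5200 CPM, so Krt16-only members lay nearer the basal level for adhesion genes. Squamous gene sums were above basal in both kinds in every library. Krt16-only members held 14198 and 7091 CPM in BPK 4NQO replicates 1 and 2, 16073 in PK 4NQO and 12105 in BPK vehicle. Basal barcodes held 9479, 5464, 10470 and 9024 CPM in the same order, and three-gene members 16028, 20476, 21324 and 18352 CPM. Dmkn encodes dermokine, a secreted epidermal protein, and was at 424 and 496 CPM in BPK 4NQO replicates 1 and 2, 570.3 in PK 4NQO and 355 in BPK vehicle in members, against 4.19 to 18.5 CPM across basal classes. Dmkn, Sbsn and the selecting gene Krtdap lie side by side on chromosome 7, with Sbsn from 30751471 to 30756134, Dmkn from 30763756 to 30781063 and Krtdap from 30787896 to 30791097. Sbsn encodes suprabasin, a protein of suprabasal layers, and was at 80.7 and 146 CPM in BPK 4NQO replicates 1 and 2, 327 in PK 4NQO and 246 in BPK vehicle in members, against 7.02 to 12.8 CPM in basal barcodes. Both neighbours were therefore above the basal gate in every library.

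Among junction genes, Dsp encodes desmoplakin, which ties keratin filaments to desmosomes, and was at 287 and 1111 CPM in BPK 4NQO replicates 1 and 2, 305 in PK 4NQO and 257 in BPK vehicle in members. Basal barcodes had 161 and 395 CPM in BPK 4NQO replicates 1 and 2, 198 in PK 4NQO and 159 in BPK vehicle of Dsp, so BPK 4NQO replicate 2 was highest in both classes. Perp, a desmosomal membrane protein and Trp53 target, was at 941 and 691 CPM in BPK 4NQO replicates 1 and 2, 1242 in PK 4NQO and 842 in BPK vehicle in members and at 256 to 472 CPM in basal barcodes. The gap junction gene Gjb2 reached 69.4 and 74.2 CPM in BPK 4NQO replicates 1 and 2, 28.2 in PK 4NQO and 10.9 in BPK vehicle in members, against 0.377 to 2.31 CPM. Jup, Pkp1, Pkp2, Dsg3, Dsc3, Cdh1, Ppl and Evpl completed the genes that were higher throughout.

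Spinous and cornified genes were uneven. Of 12 measured, 5 were higher in every library and 0 lower (median 3.40), but few members carried them. Cst6 encodes cystatin M/E, a protease inhibitor of the cornified layer, and had the highest weakest ratio of the named genes (5.69 to 10.40 on the log2 scale). Its UMIs came from 5 and 3 members in BPK 4NQO replicates 1 and 2, 1 in PK 4NQO and 1 in BPK vehicle, so 1 barcode carried all of them in each of the last 2 libraries. Krt1, the partner of Krt10 in suprabasal cells, was found in 0 and 4 members in BPK 4NQO replicates 1 and 2, 0 in PK 4NQO and 2 in BPK vehicle. Lor, Flg or Ivl, genes of the cornified envelope and granular layer, were found in 1 and 3 in BPK 4NQO replicates 1 and 2, 1 in PK 4NQO and 0 in BPK vehicle members. Of 11 Sprr and S100 genes 4 were higher in every library, among them Sprr1a, a cornified envelope precursor, at 115 and 492 CPM in BPK 4NQO replicates 1 and 2, 401 in PK 4NQO and 76.6 in BPK vehicle against 3.05 to 12.1 CPM in basal barcodes.

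Genes of the hair follicle opening and sebaceous duct divided. Of 16 measured 5 were higher and 3 lower in every library (median 0.29). Defb6, an antimicrobial beta-defensin of a multigene family, was at 9.68 and 13.7 CPM in BPK 4NQO replicates 1 and 2, 186 in PK 4NQO and 558 in BPK vehicle and came from 3 and 3 members in BPK 4NQO replicates 1 and 2, 1 in PK 4NQO and 1 in BPK vehicle. In BPK vehicle 1 member held all 102 UMIs, and in PK 4NQO 1 member held all 33. Krt75, a follicle keratin, had 0 and 0 UMIs in BPK 4NQO replicates 1 and 2, 0 in PK 4NQO and 1 in BPK vehicle. A UMI count of 0 allows up to 4.84 and 5.86 CPM in BPK 4NQO replicates 1 and 2, 16.9 in PK 4NQO and 16.4 in BPK vehicle here (3 counts).

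Regulators were lower in level but partly shared. Of 17 keratinocyte transcription factors 7 were higher and 1 lower in every library (median 0.64). Klf5, a factor of proliferating epithelium, was at 250.1 and 443 CPM in BPK 4NQO replicates 1 and 2, 232 in PK 4NQO and 197 in BPK vehicle in members, against 129.8 and 260.3 CPM in BPK 4NQO replicates 1 and 2, 149 in PK 4NQO and 177 in BPK vehicle in basal barcodes. Trp63, the factor that defines basal cells of stratified epithelia, was at 58.1 and 74.2 CPM in BPK 4NQO replicates 1 and 2, 33.9 in PK 4NQO and 115 in BPK vehicle in members and 73.1 and 86.1 CPM in BPK 4NQO replicates 1 and 2, 68.2 in PK 4NQO and 72.0 in BPK vehicle in basal barcodes, and had no common direction. Grhl1, Ovol1, Zfp750, Barx2 and Notch1 were also higher throughout, and Tfap2c was lower.

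Members also held RNA of luminal character. Of 18 luminal genes 7 were higher and 3 lower in every library (median 0.66). Wfdc18, a whey acidic protein family gene of alveolar cells, was at 808 and 1001 CPM in BPK 4NQO replicates 1 and 2, 1265 in PK 4NQO and 1143 in BPK vehicle in members. Basal barcodes had 86.3 and 119 CPM in BPK 4NQO replicates 1 and 2, 219 in PK 4NQO and 79.2 in BPK vehicle of Wfdc18, so members were above the basal gate in each library. Of the 6 luminal alveolar markers, Wfdc18 among them, 1 member held 58.8% in PK 4NQO and 76.9% in BPK vehicle. Epcam, an adhesion molecule of simple epithelia, was at 992 and 1089 CPM in BPK 4NQO replicates 1 and 2, 774 in PK 4NQO and 695 in BPK vehicle in members, against 524 to 577 CPM in basal barcodes. Cldn3, Cldn4, Aldh1a3, Areg and Ly6a were the others that were higher, and Pgr, Cited1 and Gata3 were lower. Areg and Ly6a belong to the same hormone-sensing markers as Pgr and Cited1, so those markers went both ways.

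The contractile programme was low in members as a whole. Of 13 contractile genes 0 were higher and 12 lower in all 4 libraries (median -1.75). Acta2 was at 697 and 1023 CPM in BPK 4NQO replicates 1 and 2, 2439 in PK 4NQO and 4911 in BPK vehicle over all members. Both BPK 4NQO libraries were lower than PK 4NQO and BPK vehicle, the libraries in which most members were Krt16-only, and the part of that mix was not tested. Other genes chosen for their low ratios were Fbxo32, Crispld2, Bdnf, Alpl, Pik3r1, Chil1, Plpp3, Socs3, Sdpr, Tfap2c, Lifr and Col4a1. Socs3, a feedback inhibitor of cytokine signalling, was at 148 and 141 CPM in BPK 4NQO replicates 1 and 2, 378 in PK 4NQO and 306 in BPK vehicle in members, against 504 to 855 CPM in basal barcodes. The genes chosen for high ratios included, beside those above, Anxa8, Lgals3, Aqp3, Ndufa4l2, Ccnd1, Basp1, Nupr1, Anxa1 and Avpi1.

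**Figure D3:**
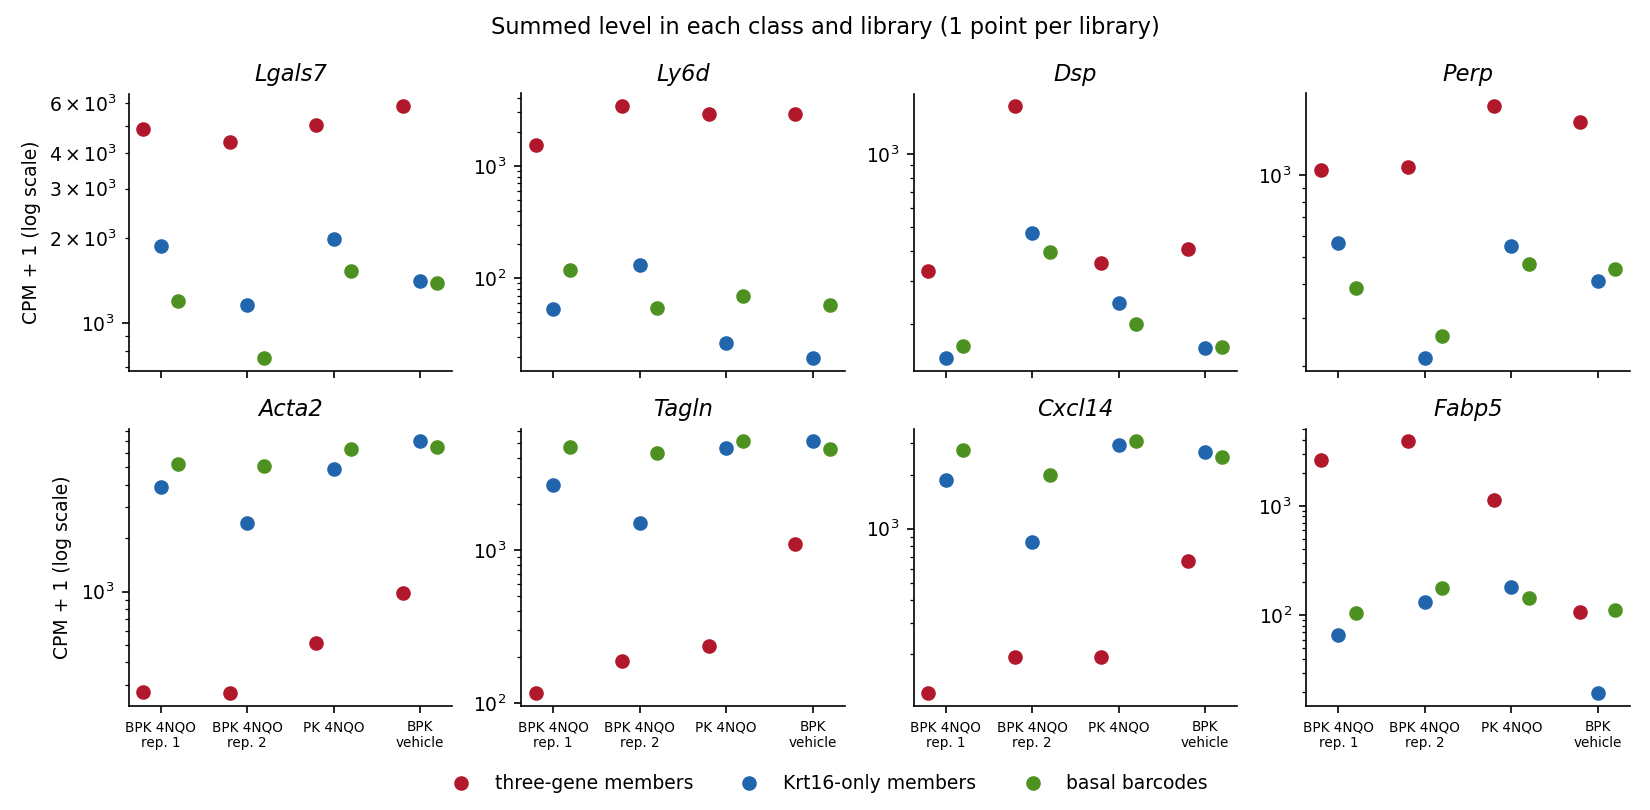
Summed level of 8 genes in three-gene members, Krt16-only members and basal barcodes of each gland library, as CPM + 1 on log scales that differ between panels, with 1 point per class and library. Lgals7, Ly6d and Perp are highest in three-gene members and Acta2 and Tagln lowest, while Krt16-only members lie nearer the basal points.

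The basal keratins themselves were measured in both kinds. Krt14 was at 7762 and 10222 CPM in BPK 4NQO replicates 1 and 2, 6865 in PK 4NQO and 2046 in BPK vehicle in three-gene members and at 5564 and 3046 CPM in BPK 4NQO replicates 1 and 2, 6867 in PK 4NQO and 4285 in BPK vehicle in Krt16-only members. Basal barcodes had 3737 and 2145 CPM in BPK 4NQO replicates 1 and 2, 4066 in PK 4NQO and 3470.3 in BPK vehicle, below the Krt16-only members of every library. Krt17, a keratin of follicles and wounded skin, was at 4637 and 1774 CPM in BPK 4NQO replicates 1 and 2, 5690.2 in PK 4NQO and 4627 in BPK vehicle in Krt16-only members, against 3273 and 1409 CPM in BPK 4NQO replicates 1 and 2, 3798 in PK 4NQO and 3277 in BPK vehicle in basal barcodes. Krt14, Krt16 and Krt17 are closely related keratins in 1 cluster on chromosome 11, and whether reads were split among them was not tested.

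Markers of other cell types were counted in the same barcodes. The 6 fibroblast markers summed to 213 and 203 CPM in BPK 4NQO replicates 1 and 2, 920.4 in PK 4NQO and 399 in BPK vehicle in members. A single member held 84.8%, 20.2%, 95.1% and 75.3% of them in those libraries, and 1, 2, 1 and 1 members had 5 or more such UMIs. The 7 immune markers summed to 565 and 295 CPM in BPK 4NQO replicates 1 and 2, 96.0 in PK 4NQO and 21.9 in BPK vehicle, and in basal barcodes to 896, 406, 116 and 102 in the same order. The 5 endothelial markers were between 16.4 and 67.8 CPM, the 3 adipocyte markers between 0 and 10.9 CPM, and the 2 Merkel cell markers between 0 and 1.95 CPM. The 6 luminal hormone-sensing markers summed to 1218 and 812 CPM in BPK 4NQO replicates 1 and 2, 745 in PK 4NQO and 219 in BPK vehicle in members and to 241 and 302 CPM in BPK 4NQO replicates 1 and 2, 165 in PK 4NQO and 81.2 in BPK vehicle in basal barcodes. In the 4NQO libraries most of this was Ly6a, at 1018 and 615 CPM in BPK 4NQO replicates 1 and 2, 593 in PK 4NQO and 87.5 in BPK vehicle in members, while Pgr and Cited1 of the same markers were lower than in basal barcodes. The 6 luminal alveolar markers summed to 897 and 1530.2 CPM in BPK 4NQO replicates 1 and 2, 1383 in PK 4NQO and 1230.5 in BPK vehicle in members, against 145 to 305 CPM in basal barcodes, and 1 member held 58.8% of them in PK 4NQO and 76.9% in BPK vehicle. A doublet caller marked 1 and 1 in BPK 4NQO replicates 1 and 2, 2 in PK 4NQO and 4 in BPK vehicle members. The part of these cells in the results was not tested beyond the fits without them given below.

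The treatment comparison set BPK 4NQO members (n = 2) against BPK vehicle members (n = 1). BPK vehicle was 1 library, so treatment cannot be told apart from library here or in the member-to-basal ratio below. Of 5979 genes 0 rose and 3 fell by edgeR's quasi-likelihood test with Benjamini-Hochberg adjustment (0.0502% called). An unadjusted p under 0.05 was found for 236 genes, fewer than the share of 0.05 that arises with no true difference. Defb6 fell (log2 fold change -5.74, SE 1.19, adjusted p = 0.00403), and the BPK vehicle value came from the 1 member described above. Has1, a hyaluronan synthase, fell by a factor that is only bounded: it was at 0 UMIs in both BPK 4NQO libraries against 11 UMIs from 1 member of BPK vehicle, or at least 11.2-fold lower against a floor of 3 counts per library. The third gene that fell was Pi16, which encodes a secreted protein. Without members that held fibroblast RNA, 1 gene was called. With the rule stripped of Krt16, 5 genes rose and 16 fell, from 43, 45 and 9 members in BPK 4NQO replicates 1 and 2 and BPK vehicle.

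Gene lists had strong directions with no member past the test, so they are given as values. All 13 contractile genes had negative log2 fold changes (median -2.43), 18 of 18 proliferation genes had positive ones (median 1.65), 18 of 19 interferon-stimulated genes were positive (median 4.92) and 10 of 10 Sprr and S100 genes were positive (median 1.53), against a median of 0.07 over all genes. In BPK vehicle members 9 of those 19 interferon-stimulated genes and 3 of the 10 Sprr and S100 genes were at 0 UMIs, and with these at their bound (a floor of 3 counts per library) the medians were 2.55 and 1.20. Of 12 MHC class I genes 11 were positive (median 1.56). H2-K1, a class I heavy chain with related copies nearby, was at 2162 and 1971 CPM in BPK 4NQO members against 492 CPM in BPK vehicle members. Basal barcodes of the same libraries had 1541 and 1162 CPM in BPK 4NQO against 416 CPM in BPK vehicle. Bst2, which tethers virus particles to the membrane, was at 187 and 211 CPM in BPK 4NQO members against 1 UMI in BPK vehicle members. Values were higher in BPK 4NQO than in BPK vehicle in both classes for H2-K1, and neither gene passed the test within members.

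To separate members from the gland they sat in, the ratio of members to basal barcodes was compared between BPK 4NQO and BPK vehicle, with the library as a block. Of 10460 genes the ratio rose for 26 (0.249%) and fell for 55 (0.526%), 0.774% in all, by edgeR's quasi-likelihood test. Of 13 contractile genes 9 fell: Acta2, Actg2, Cnn1, Lmod1, Myh11, Myl9, Mylk, Oxtr and Tagln (median -2.21 over the list, against 0.11 over all genes). Cnn1 encodes calponin, a smooth muscle actin-binding protein, and its ratio was -3.82 and -2.89 in BPK 4NQO replicates 1 and 2, -1.10 in PK 4NQO and -0.28 in BPK vehicle (log2 difference -3.03, SE 0.507, adjusted p = 4.86e-06). Myh11, smooth muscle myosin, had ratios of -3.95 and -3.12 in BPK 4NQO replicates 1 and 2, -0.99 in PK 4NQO and -0.21 in BPK vehicle (log2 difference -3.23, SE 0.518, adjusted p = 1.69e-06). The BPK vehicle members thus matched their basal barcodes within about 1 log2 unit for both, and both BPK 4NQO libraries lay lower.

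The kinds differed in number between these libraries, with Krt16-only members at 27.7% and 45.1% in BPK 4NQO against 68.6% in BPK vehicle, and the part of that mix in the contractile result was not tested within the main fit. In the fit without Krt16 in the rule, 4 of 13 contractile genes fell, with a list median of -1.70 and 9 of 13 negative. Of all 81 genes called, 54 were called in that fit too. DESeq2 called 12 genes, 7 of them contractile.

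Several proliferation genes rose in the same comparison. Of 20 measured 6 rose (Ube2c, Cdc20, Birc5, Cdk1, Ccnb1 and Hmgb2) and 0 fell (median 1.98, or 1.94 with the 1 gene at 0 UMIs in BPK vehicle members at its bound). Ube2c, a ubiquitin-conjugating enzyme of mitotic exit, was at 245 and 82.0 CPM in BPK 4NQO replicates 1 and 2, 147 in PK 4NQO and 43.7 in BPK vehicle in members and at 29.0 and 23.6 CPM in BPK 4NQO replicates 1 and 2, 73.6 in PK 4NQO and 63.5 in BPK vehicle in basal barcodes (log2 difference 3.11, SE 0.655, adjusted p = 0.00139). Hmgb2, a chromatin protein of dividing cells, rose as well (log2 difference 1.91, SE 0.525, adjusted p = 0.0396). Birc5, Cdk1, Cdc20 and Ccnb1 had 3, 1, 3 and 2 UMIs over BPK vehicle members, so their size is not given. Members with 5 or more UMIs over the 20 genes were 38 and 27 in BPK 4NQO replicates 1 and 2, 8 in PK 4NQO and 4 in BPK vehicle, or 58.5% and 26.5% in BPK 4NQO replicates 1 and 2, 21.6% in PK 4NQO and 11.4% in BPK vehicle. Median UMIs per member were also highest in BPK 4NQO replicate 1, and these shares were not thinned. DESeq2 called none of the 20 genes, and the rule without Krt16 called 8.

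Fabp5 had the smallest adjusted p. It encodes an epidermal fatty acid-binding protein (chromosome 3, 10012548 to 10016607), and near-identical copies elsewhere in the genome make its count uncertain. Members had 2118 and 2305 CPM in BPK 4NQO replicates 1 and 2, 717 in PK 4NQO and 49.2 in BPK vehicle, against 104 and 178 CPM in BPK 4NQO replicates 1 and 2, 144 in PK 4NQO and 111 in BPK vehicle in basal barcodes (log2 difference 5.24, SE 0.616, adjusted p = 2.12e-13). Its UMIs came from 43 and 56 members in BPK 4NQO replicates 1 and 2, 16 in PK 4NQO and 4 in BPK vehicle. Both 4NQO genotypes were above BPK vehicle, and only BPK 4NQO was tested against it. The level belonged to three-gene members, at 2612 and 3905 CPM in BPK 4NQO replicates 1 and 2, 1143 in PK 4NQO and 105 in BPK vehicle, while Krt16-only members had 65.3 and 131 CPM in BPK 4NQO replicates 1 and 2, 179 in PK 4NQO and 18.5 in BPK vehicle. The basal marker keratin Krt15 fell (log2 difference -1.78, SE 0.488, adjusted p = 0.0396), and was at 155 and 223 CPM in BPK 4NQO replicates 1 and 2, 440.4 in PK 4NQO and 1279.7 in BPK vehicle in members. The chemokine genes Cxcl14, Ccl27a and Ccl7 fell too, and so did Eln, which encodes elastin. The Ccl7 call was lost without members holding fibroblast RNA (adjusted p = 0.463), at 4 or more UMIs of the selecting genes (0.803) and by DESeq2 (0.212), and its log2 difference of -3.07 was -1.84 and -5.38 with BPK 4NQO replicate 1 or 2 left out. The Ccl27a call was lost by DESeq2 (adjusted p = 0.212) and the Cxcl14 call without Krt16 in the rule (0.0786).

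**Figure D4:**
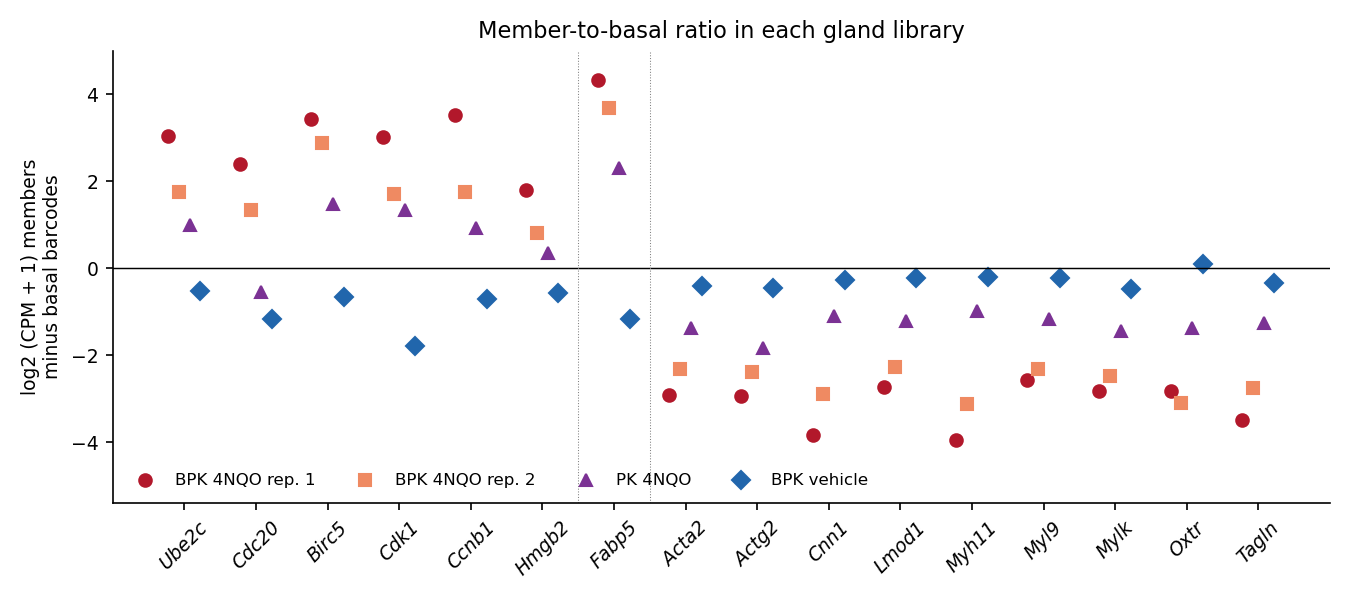
Log2 ratio of CPM + 1 in members over basal barcodes, in each gland library, for the proliferation genes, Fabp5 and the contractile genes that passed the test of BPK 4NQO against BPK vehicle. BPK vehicle lies within 2 log2 units of 0 for each gene drawn, both BPK 4NQO libraries lie farther out on the contractile side, and PK 4NQO lies between them for most genes.

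The genotype comparison set BPK 4NQO members (n = 2) against PK 4NQO members (n = 1), and asks what 1 floxed Brca1 allele adds under the carcinogen. PK 4NQO was 1 library and the only one counted with Cell Ranger 3.0.2 (5.0.1 elsewhere). Genotype cannot be told apart from library or version in this design. Of 5979 genes 0 rose and 11 fell (0.184% called). An unadjusted p under 0.05 was found for 153 genes, again fewer than a share of 0.05. Rarres2, which encodes the chemoattractant chemerin, was at 6.45 and 5.86 CPM in BPK 4NQO members against 181 CPM in PK 4NQO members (log2 fold change -4.96, SE 0.989, adjusted p = 0.0011). Ccl7, a monocyte chemokine, was at 3.23 and 29.3 CPM in BPK 4NQO members against 384 CPM in PK 4NQO members (log2 fold change -4.79, SE 1.10, adjusted p = 0.0122). Fabp4, a fatty acid-binding protein of fat cells and capillaries, was at an adjusted p close to the threshold (log2 fold change -4.12, SE 1.05, adjusted p = 0.0492), and without doublets its log2 fold change was -0.17 (adjusted p = 1.00).

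The other genes called were Has1, Cnfn, Tnfaip6, Rbp7, Csf2, Il1rl1, Them5 and a hemoglobin gene. Cnfn encodes cornifelin of the cornified envelope, and 18 of its 19 UMIs in PK 4NQO came from the barcode with most Krtdap. PK 4NQO members held 920 CPM of fibroblast markers, 95.1% of it from 1 member. Without members holding 5 or more such UMIs, 3 genes were called, and neither Ccl7 (adjusted p = 0.850) nor Fabp4 (0.0984) was among them, while Rarres2 had too few counts to be tested. DESeq2 called 1 gene, which was none of the 11, with adjusted p = 0.279 for Rarres2 and 0.0846 for both Ccl7 and Fabp4.

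In the member-to-basal ratio, of 10460 genes 5 rose (0.0478%) and 25 fell (0.239%) in BPK 4NQO against PK 4NQO, 0.287% in all. Top2a, the DNA topoisomerase of dividing cells, was at 282 and 416 CPM in BPK 4NQO replicates 1 and 2, 22.6 in PK 4NQO and 76.6 in BPK vehicle in members and at 38.9 and 109.7 CPM in BPK 4NQO replicates 1 and 2, 59.5 in PK 4NQO and 56.7 in BPK vehicle in basal barcodes (log2 difference 3.82, SE 0.728, adjusted p = 0.000147). Cenpf, a kinetochore protein, rose too (log2 difference 3.53, SE 0.763, adjusted p = 0.00217). They were the 2 of 20 proliferation genes that passed, and 20 of 20 were positive (median 1.67, against 0.13 over all genes). DESeq2 called 0 of the 20 (adjusted p = 0.330 for Top2a and 1 for Cenpf), and at 4 or more UMIs of the selecting genes Top2a was not called (adjusted p = 0.557). The contractile genes Cnn1 and Myh11 fell, and 13 of 13 were negative (median -1.20).

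The monocyte chemokine Ccl2 fell in that ratio (log2 difference -3.61, SE 0.516, adjusted p = 3.06e-08), at 71.0 and 66.4 CPM in BPK 4NQO replicates 1 and 2, 988 in PK 4NQO and 153 in BPK vehicle in members. Cxcl10, an interferon-induced chemokine, also fell (log2 difference -4.10, SE 0.644, adjusted p = 1.02e-06), although members had 123 and 472 CPM in BPK 4NQO replicates 1 and 2, 192 in PK 4NQO and 10.9 in BPK vehicle. Its basal values were 80.4 and 138 CPM in BPK 4NQO replicates 1 and 2, 4.57 in PK 4NQO and 4.90 in BPK vehicle, so BPK 4NQO and PK 4NQO stood farther apart in basal barcodes than in members. At 4 or more UMIs of the selecting genes the values turned to 0.80 for Ccl2 and 7.14 for Cxcl10, neither called, and without members holding fibroblast RNA Ccl2 was at -1.23 (adjusted p = 0.996). The extracellular matrix genes Col1a1, Col1a2, Col3a1, Fn1, Fstl1, Bgn and Eln fell too. Without members holding fibroblast RNA 4 genes rose and 10 fell, and the values for Col1a2 and Col3a1 turned positive (1.44 and 7.43), while Fn1 was at -0.31 and Fstl1 at -0.90, neither called.

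The tumor comparison set tumor barcodes that passed the same rule (n = 1) against BPK 4NQO members (n = 2). The rule was not made for the tumor, and of its 1185 barcodes 1155 were three-gene and 3 Krt16-only, so the mix of kinds differed from that of the gland. Of 7637 genes 77 rose (1.01%) and 41 fell (0.537%), 1.55% in all. DESeq2 gave 29 and 16, and without a filter on low counts 0 were called (adjusted p = 0.946 for each named gene).

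Among the genes that rose in the tumor were 3 matrix metalloproteinases. Mmp13, a collagenase, was at 340.2 CPM in the tumor, against 6.45 and 5.86 CPM in BPK 4NQO replicates 1 and 2 (log2 fold change 5.98, SE 1.08, adjusted p = 2.43e-05). Mmp3, a stromelysin, was at 314 CPM in the tumor, against 3.23 and 1.95 CPM in BPK 4NQO replicates 1 and 2. BPK 4NQO members held 3 UMIs of Mmp3 in all, and the ratio was 121 (counting interval 41.5 to 588). Mmp10, a related stromelysin, also had 3 UMIs in BPK 4NQO members, for a ratio of 103 (35.1 to 497). The 3 enzymes lie close together on chromosome 9, with Mmp13 from 7272514 to 7283331, Mmp3 from 7445822 to 7455975 and Mmp10 from 7502352 to 7510240.

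Genes of a growth factor and of a surface receptor rose with them. Epgn encodes epigen, an EGF receptor ligand, and was at 498 CPM in the tumor, against 19.4 and 25.4 CPM in BPK 4NQO replicates 1 and 2 (log2 fold change 4.69, SE 1.02, adjusted p = 0.00115). It was the 1 of 7 EGFR ligand genes that passed, with 6 of 7 positive (median 2.00, against -0.12 over all genes). Procr, the protein C receptor, rose (log2 fold change 5.23, SE 1.02, adjusted p = 0.000153). Saa3, an acute-phase protein, had 2 UMIs in BPK 4NQO members and a ratio of 281 (77.7 to 2318). Rarres2, Col1a1 and Ccl7 rose as well. The tumor barcodes held 3089 CPM of the 6 fibroblast markers, with 434 of 1185 at 5 or more UMIs, and without those barcodes Saa3, Rarres2, Col1a1 and Ccl7 were no longer called.

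Epidermal differentiation genes did not move as 1 group in the tumor. All 12 Sprr and S100 genes were positive (median 0.96, against -0.12 over all genes), and 2 of them passed. Of 16 spinous and cornified genes 8 were positive and 8 negative (median 0.16). With 3 of these at 0 UMIs in BPK 4NQO members set to their bound, the median was -0.03. Sprr2d and Sprr2h, near-identical cornified envelope genes, rose, as did Cnfn and Gjb6. Krt1 fell (log2 fold change -4.81, SE 1.28, adjusted p = 0.0187), with 7.54 CPM in the tumor, against 0 and 509 CPM in BPK 4NQO replicates 1 and 2. All of the BPK 4NQO counts of Krt1 came from 4 members of replicate 2. Of 18 squamous genes 0 passed the test, with 13 positive and 5 negative (median 0.80).

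Part of the interferon-stimulated list fell in the tumor. Of 19 measured 7 fell (Rsad2, Ifi44, Ifit1, Cxcl9, Cxcl10, Ubd and Iigp1) and all 19 were negative (median -3.22), while DESeq2 called 3 of them. Iigp1, an interferon-inducible GTPase, was at 6.82 CPM in the tumor, against 145 and 402 CPM in BPK 4NQO replicates 1 and 2 (log2 fold change -5.09, SE 1.27, adjusted p = 0.00929). Cxcl9, a T cell chemokine, was at 5.47 CPM in the tumor, against 79.0 and 232 CPM in BPK 4NQO replicates 1 and 2 (log2 fold change -4.59, SE 1.16, adjusted p = 0.0102). Gbp7, a guanylate-binding protein, fell too (log2 fold change -4.38, SE 1.11, adjusted p = 0.0105). All 13 MHC class I genes were negative (median -1.37) and 0 of them passed. Of 20 proliferation genes 0 passed (median -0.26). Clca3a2, a secreted protein gene that was also made in basal barcodes, was at 3.25 CPM in the tumor, against 166 and 283 CPM in BPK 4NQO replicates 1 and 2 (log2 fold change -5.88, SE 1.34, adjusted p = 0.00257).

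**Figure D5:**
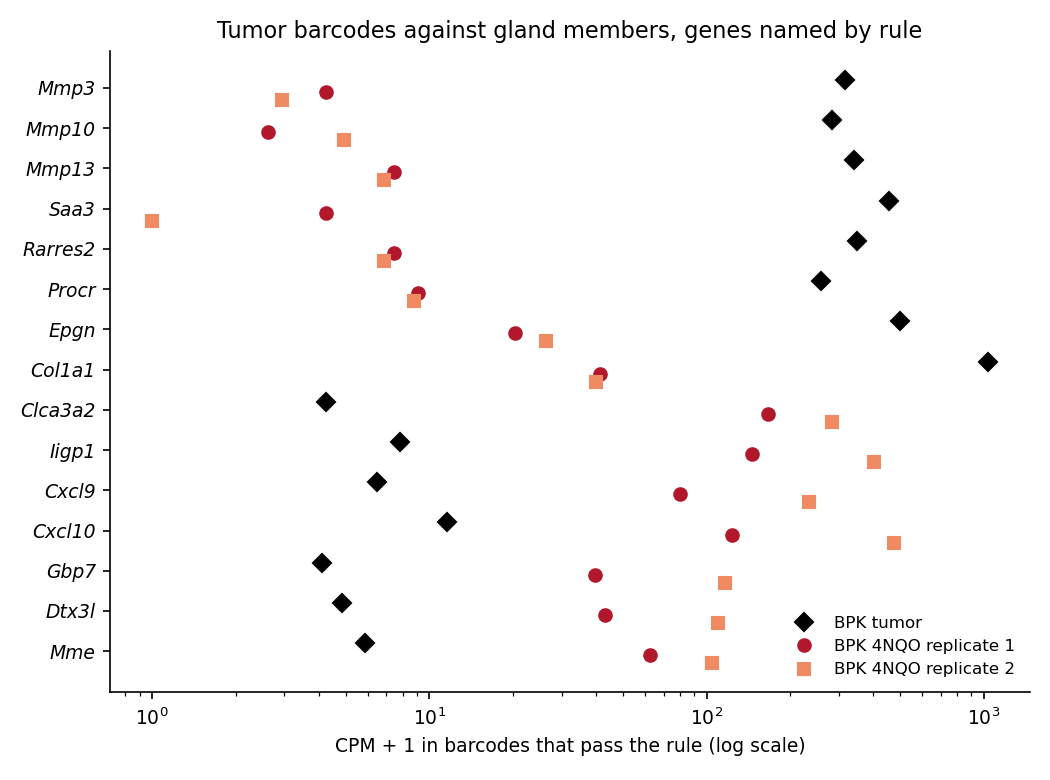
CPM + 1 on a log scale for 15 genes named by the rule, in tumor barcodes and in BPK 4NQO members, with 1 point per library. The tumor point lies above both gland points for the upper 8 genes and below them for the lower 7.

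The targeted genes were measured as a check of the labels. Trp53 was at 16.1 and 3.90 CPM in BPK 4NQO replicates 1 and 2, 33.9 in PK 4NQO and 27.3 in BPK vehicle, and at 7.11 CPM in tumor barcodes. Brca1 was at 4.84 and 9.76 CPM in BPK 4NQO replicates 1 and 2, 0 in PK 4NQO and 10.9 in BPK vehicle, and at 2.16 CPM in tumor barcodes. Members held at most 10 UMIs of either gene per gland library. The Trp53 interval of the tumor (6.25 to 8.06 CPM) lay below those of PK 4NQO members (12.4 to 73.7 CPM) and BPK vehicle members (8.88 to 63.8 CPM). It overlapped those of BPK 4NQO replicate 1 (7.74 to 29.7 CPM) and replicate 2 (0.473 to 14.1 CPM). Reads from the 3' end of a gene cannot check a deletion that lies elsewhere in it, and which exons the alleles remove was not stated in the labels.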

How the data were processed

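The authors deposited a matrix of UMI counts, genes by barcodes, for each of 5 libraries (27998 genes). Per the file headers these came from Cell Ranger (3.0.2 in PK 4NQO, 5.0.1 elsewhere), and per the labels against mm10 from 3' v2 chemistry. How cells were called and which annotation was used is not given in the sources used here. Because of an uncertain unit, the labelled dose of 4NQO was left out. Libraries held 27383717 to 64169843 UMIs.

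Counts were summed per library over members and over basal-gate barcodes and tested with edgeR 4.0.16 (R 4.3.3): genes kept by filterByExpr, TMM scaling, a quasi-likelihood F test, and p-values adjusted by Benjamini-Hochberg over all genes tested. A gene is called where that value is below 0.05. The spread has 1 residual degree of freedom, from the BPK 4NQO pair, and each single library is assumed to have the same spread. Comparisons that share the BPK 4NQO libraries are not independent. An SE is the size of the log2 fold change divided by the root of its F value. Member-to-basal ratios used a library block. Levels are CPM, with 1 added for log2 ratios. The fits were tested on simulated counts with known changes. They recovered 1 to 10% of 2-fold changes. Of 8-fold changes they recovered 91 to 100% in comparisons of members and 70 to 72% in member-to-basal ratios. These shares hold for such counts only. Recovery in the members' own counts, where a single barcode can hold most UMIs of a gene, was not tested. In member counts, 0 of 19 interferon-stimulated genes were called between BPK 4NQO and BPK vehicle, at a median log2 fold change of 4.92. With genes at 0 UMIs in BPK vehicle members set to their bound, that median was 2.55. A gene that was not called may therefore still differ. Doublets were scored with scrublet in scanpy 1.11.5 (top 0.8% per 1000 barcodes) and kept in the main fits. DESeq2 1.42.0 was an alternative.

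Named genes are up to 10 per side with the smallest adjusted p, a mean of at least 50 CPM and 1 direction shared by the BPK 4NQO libraries. For members against basal they are the 20 highest and 12 lowest by their weakest ratio, at at least 100 CPM. Genes of the rule, Xist and its antisense partner, Y-linked, immunoglobulin, hemoglobin, predicted, mitochondrial and ribosomal genes were left out, and genes of 18 fixed lists are named besides. Some genes that meet these rules are not reported here. The members and lists were chosen with earlier results of these data known, and genes named outside these rules were chosen after their values were seen. Locations are from GENCODE M21 (GRCm38), and 2 promoter sequences are from RefSeq.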

Additional observations from a re-analysis of the deposited data

Results flagged for a closer look

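Each result in this paragraph is a member-to-basal ratio that differed between groups by the test of the difference itself, edgeR's quasi-likelihood test with a library block. Between BPK 4NQO and BPK vehicle the log2 difference was 5.24 for Fabp5, 3.39 for Tmem167, 3.11 for Ube2c, 2.72 for Fam162a and 2.68 for Cenpa, the last a centromere histone. It was -8.15 for Defb6, -3.77 for Eln, -3.23 for Myh11, -3.09 for Oxtr, -3.07 for Ccl7, -3.05 for Ccl27a, -3.03 for Cnn1, -2.82 for Svil, -2.75 for Tagln and -2.28 for Cxcl14. Leaving out BPK 4NQO replicate 1 or 2 gave -2.17 and -3.78 for Svil, and -1.84 and -5.38 for Ccl7. The Defb6 value rests on 1 BPK vehicle member that held all 102 UMIs.

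Between BPK 4NQO and PK 4NQO the log2 difference was 3.82 for Top2a and 3.53 for Cenpf. It was -4.10 for Cxcl10, -4.02 for Rarres2, -3.61 for Ccl2, -3.61 for Meg3, -3.55 for Ccl7, -3.18 for Fabp4, -3.04 for Fn1, -2.90 for Col3a1, -2.89 for Col1a2 and -2.76 for Fstl1. Without doublets Fabp4 was at -0.44 (adjusted p = 0.999). Leaving out BPK 4NQO replicate 1 or 2 gave -5.22 and -0.29 for Fn1, -4.61 and -1.15 for Col3a1, -4.24 and -1.45 for Col1a2, -2.31 and -5.84 for Ccl7, and -1.96 and -4.03 for Fabp4. Without members holding fibroblast RNA Rarres2 was at -1.68, Ccl7 at -1.57 and Meg3 at -0.80, with adjusted p = 0.996 for each. One PK 4NQO member held 95.1% of the fibroblast marker UMIs of its library's members, and the part of that member in these values is given with the alternatives.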

How the results depend on the processing

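No paired analysis was possible because only BPK 4NQO has more than 1 library and no replicate number is shared between groups. The settings without Krt16, without fibroblast RNA and without 1 PK 4NQO barcode were chosen after seeing the data. For BPK 4NQO against BPK vehicle, 3 genes were called in the main fit, and 5 by DESeq2, 9 with no filter on low counts, 5 with only the compared libraries, 6 without doublets, 6 at 4 or more UMIs of the selecting genes, 21 without Krt16 in the rule and 1 without members holding fibroblast RNA, of which 1, 3, 2, 3, 1, 3 and 1 were among the 3. For BPK against PK, 11 genes were called in the main fit, and 1, 7, 3, 22 and 3 by DESeq2, without doublets, at 4 or more UMIs, without Krt16 and without fibroblast RNA, of which 0, 7, 1, 7 and 3 were among the 11. For the tumor there were 118 calls, and 45 by DESeq2 (36 shared), 0 with no filter and 73 at 4 or more UMIs (66 shared). For the member-to-basal ratio there were 81 treatment calls, and 12 by DESeq2 (12 shared) and 125 without doublets (74 shared), and 30 genotype calls, and 2 by DESeq2 (2 shared), 7 at 4 or more UMIs (4 shared) and 14 without fibroblast RNA (12 shared). The cause of these changes was not tested. Leaving out either BPK 4NQO replicate leaves no residual degrees of freedom and so no test. Called genes still 1 log2 unit or more to the same side then numbered 3 to 3, 11 to 11, 108 to 118, 81 to 81 and 28 to 30, in the order of comparisons above.

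Genotype ratios that turned positive were, at 4 or more UMIs, Ccl2 (0.80), Cxcl10 (7.14), Fabp4 (2.14), Rarres2 (4.92), Col1a2 (7.12), Col3a1 (6.78), Fn1 (6.88) and Fstl1 (7.04), without Krt16 Fabp4 (0.78), and without fibroblast RNA Col1a2 (1.44) and Col3a1 (7.43). The mean BPK 4NQO share of 1.17% was 0.422% thinned to 1000 UMIs, 0.669% at 4 or more UMIs, 2.94% of epithelial barcodes, 0.611% without Krt16 and 0.870 to 1.47% with 1 replicate left out. The same settings gave 0.206%, 0.161%, 0.720% and 0.148% in PK 4NQO and 0.0673%, 0.107%, 0.552% and 0.0959% in BPK vehicle, with 0.264% and 0.180% at 1500 UMIs. In the tumor they gave 49.7% at 1500 UMIs, 44.3% at 1000, 47.5% at 4 or more UMIs and 77.8% of epithelial barcodes. Of the other values for named genes, 460 kept direction and call, 80 kept direction but lost the call, and with a BPK 4NQO replicate left out, where there is no test, 88 stayed within 1 SE and 24 moved farther. A count of 0 allows up to 16.9 CPM in PK 4NQO members and 16.4 CPM in BPK vehicle members, so lower levels are not detectable there.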

Other observations

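Other lists were compared between members and basal barcodes in the same way, without a test. Immediate early genes, which stimulation and tissue dissociation both switch on within minutes, had 3 of 16 higher and 8 lower in all 4 gland libraries (median -0.52), against 12.1% higher and 13.1% lower over all genes tested. Fos, a subunit of AP-1, was at 690.5 and 870.5 CPM in BPK 4NQO replicates 1 and 2, 1248 in PK 4NQO and 952 in BPK vehicle in members, against 2692 and 2088 CPM in BPK 4NQO replicates 1 and 2, 2288 in PK 4NQO and 1467 in BPK vehicle in basal barcodes. Members were lower than their basal barcodes in each library. Of 13 MHC class I genes 8 were higher and 0 lower (median 0.56), and B2m, the light chain of class I, was at 5675 and 2106 CPM in BPK 4NQO replicates 1 and 2, 4184 in PK 4NQO and 1137 in BPK vehicle in members, against 3354 and 1109 CPM in BPK 4NQO replicates 1 and 2, 1861 in PK 4NQO and 808 in BPK vehicle in basal barcodes. Proliferation genes were higher in every library for 7 of 20 (median 1.11) and interferon-stimulated genes for 3 of 21 (14.3%, median 0.62), the last near the share over all genes.

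Basement membrane adhesion genes had 2 of 13 higher and 3 lower (median -0.24), Trp53 targets 2 of 13 higher and 1 lower (median -0.00), NRF2 targets 0 of 11 higher and 2 lower (median -0.29), and MHC class II genes 0 of 6 higher and 1 lower (median -0.36). Of 7 EGFR ligand genes 3 were higher and 1 lower (median 0.51), and of 19 cytokine and chemokine genes 4 were higher and 3 lower (median 0.63). Hbegf, an EGF receptor ligand of wounded epidermis, was at 102 and 342 CPM in BPK 4NQO replicates 1 and 2, 152 in PK 4NQO and 219 in BPK vehicle in members and had no common direction against basal barcodes at 149.5 and 195 CPM in BPK 4NQO replicates 1 and 2, 90.7 in PK 4NQO and 107 in BPK vehicle. Areg, another such ligand, was at 176 and 141 CPM in BPK 4NQO replicates 1 and 2, 129.9 in PK 4NQO and 71.1 in BPK vehicle in members, against 13.7 to 36.2 CPM in basal barcodes.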
